A study of Mus musculus with 185 samples.

Results

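The genes described here are 8 listed by name as brakes of the kinase complex mTORC1: Ddit4, Sesn1, Sesn2, Sesn3, Depp1, Deptor, Tsc1 and Tsc2. All 8 were found among the 57010 genes of the count matrix, and all 8 passed the filter on low counts in every comparison. No expression value was used to choose them by the rule, although the list was drawn up with earlier results of these data known. The data are RNA-seq read counts from the brains of 37 male mice of the inbred strain C57BL/6J, obtained at an age of 8 weeks. In the 16 h study, pair-housed mice in 3 cages per diet stayed on chow, received a high-fat diet (HFD) or were fasted (6 mice each). In the 24 h study, single-housed mice stayed on chow (9 mice) or were fasted (10 mice). Hypothalamus, hippocampus, superior colliculus and inferior colliculus were sequenced in both studies, and with them frontal cortex at 16 h and zona incerta at 24 h. Apart from the hypothalamus, samples came from the left or right hemisphere at 16 h and from the left at 24 h. All mice had free access to water, and the labels name neither another genotype nor a drug.

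mTORC1 is a protein kinase complex at the lysosome that drives protein synthesis and holds back autophagy when nutrients and growth factors are at hand. The TSC complex, made of the products of Tsc1, Tsc2 and Tbc1d7, switches off Rheb, the small GTPase that activates mTORC1. Ddit4 (REDD1) is a stress-induced protein that acts through the TSC complex and whose gene is known to respond to hypoxia, DNA damage and glucocorticoids. The sestrins are stress-induced proteins that bind GATOR2 and so restrain the amino acid branch of the pathway, Sesn2 being known as a leucine sensor. Deptor binds mTOR itself. Depp1 is a FoxO target gene whose product has been tied to peroxisomes and autophagy.

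The headings of the matrix gave the mouse of each column but not its brain area. The 5 columns of a mouse were therefore summed, and the mouse was the replicate. Levels are given as CPM, the counts of a gene scaled to 1000000 counts of the mouse. A mouse had between 57962237 and 161577364 counts. Of all columns, 27 were low (under 1000000 counts, or fewer than 16000 genes expected in a draw of 500000 counts). The study discarded a block of samples from single-housed mice that lacked detectable RNA and had a flowcell of its own. The labels place this block in both diets and mark further samples of both studies as failed in quality control. The headings gave no area, so no column was left out on these labels, and the main sums hold all 5 columns of a mouse. The flowcell was not modelled in any fit. The depth of a column set its weight in the sum, and markers of brain areas differed widely between the sums of mice. In the 24 h study the summed level of 8 hypothalamic markers ran from 10.1 to 189 CPM in chow mice and from 30.1 to 255 CPM in fasted mice. Choroid plexus was not among the sequenced areas. Its 5 markers ran from 24.1 to 1764 CPM in chow mice and from 30.7 to 4094 CPM in fasted mice. The source of these spreads was not tested. No marker of the sequenced areas was absent from a group. In summed tissue, fewer cells of a type and less RNA per cell cannot be told apart. The p-values measure the spread between the mice of a group, and at 16 h mice of a cage shared it.

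The methods of the study state that the superior colliculus samples of chow mouse 1423 and fasted mouse 1454 were swapped in handling and that the sample table was corrected. In the matrix, 1 column of each of these mice stood with the other diet. On a score of 16 glucocorticoid-responsive genes (mean difference in log2(CPM + 1) from the 24 h mean), scores lay between -1.10 and -0.41 in the 30 columns of the remaining chow mice, and between 0.04 and 1.57 in the 34 columns of the remaining fasted mice. These 16 genes were listed with earlier results of these data known, so the gap between the diets is not independent support. A column of mouse 1423 had a score of 0.56 and 63.5 CPM of Ddit4, and a column of mouse 1454 had -0.96 and 22.8 CPM. Labels were kept as given, and results at 24 h are also given without both mice.

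Ddit4 was the member that differed most between diets. In the 24 h study the chow mice had a lowest level of 27.9, a median of 30.8 and a highest of 39.4 CPM, and the fasted mice 65.7, 98.6 and 111.4 CPM. All 10 fasted mice were above all 9 chow mice. The highest chow mouse was 1423 and the lowest fasted mouse was 1425. The means were 31.8 ± 3.68 CPM (SD, n = 9) and 95.2 ± 13.5 CPM (SD, n = 10). This is a log2 fold change of 1.64 ± 0.10 (SE) or a factor of 3.11 (95% interval 2.68 to 3.60), with an adjusted p of 5.17e-09 in edgeR's quasi-likelihood test, the lowest adjusted p that any gene reached and shared with other genes. Without mice 1423 and 1454 it was 1.70 ± 0.10. Of all 29011 genes tested, 11.4% were called at an adjusted p under 0.05, 5.78% as higher in fasted mice and 5.62% as lower. A fasted range wholly above the chow range was seen for 0.714% of genes.

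In the 16 h study Ddit4 levels lay close together. The chow mice had 21.2 (lowest), 26.7 (median) and 28.8 CPM (highest), the HFD mice 24.6, 27.4 and 27.98 CPM, and the fasted mice 24.7, 31.8 and 34.4 CPM. Of the 6 fasted mice, 4 were above every chow mouse, and the ranges overlapped. Fasting against chow gave a log2 fold change of 0.23 ± 0.08 (unadjusted p = 0.00991, adjusted p = 0.579), which did not pass the test. With equal weight per column, which lets the low columns count as much as the others, it was -0.12 ± 0.22, and 0.24 ± 0.07 once these were left out. Within the 3 rounds in which cages were started, the difference was 0.13, 0.30 and 0.19 on the log2 scale. HFD against chow gave 0.08 ± 0.08 (95% interval -0.09 to 0.24, adjusted p = 0.768). The fasting effect at 24 h exceeded that at 16 h by 1.41 ± 0.14 (adjusted p = 1.20e-07). Duration of the fast, single or pair housing, the set of brain areas, hemisphere, start time, date and sequencing run all changed between the studies. These cannot be told apart.

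**Figure D1:**
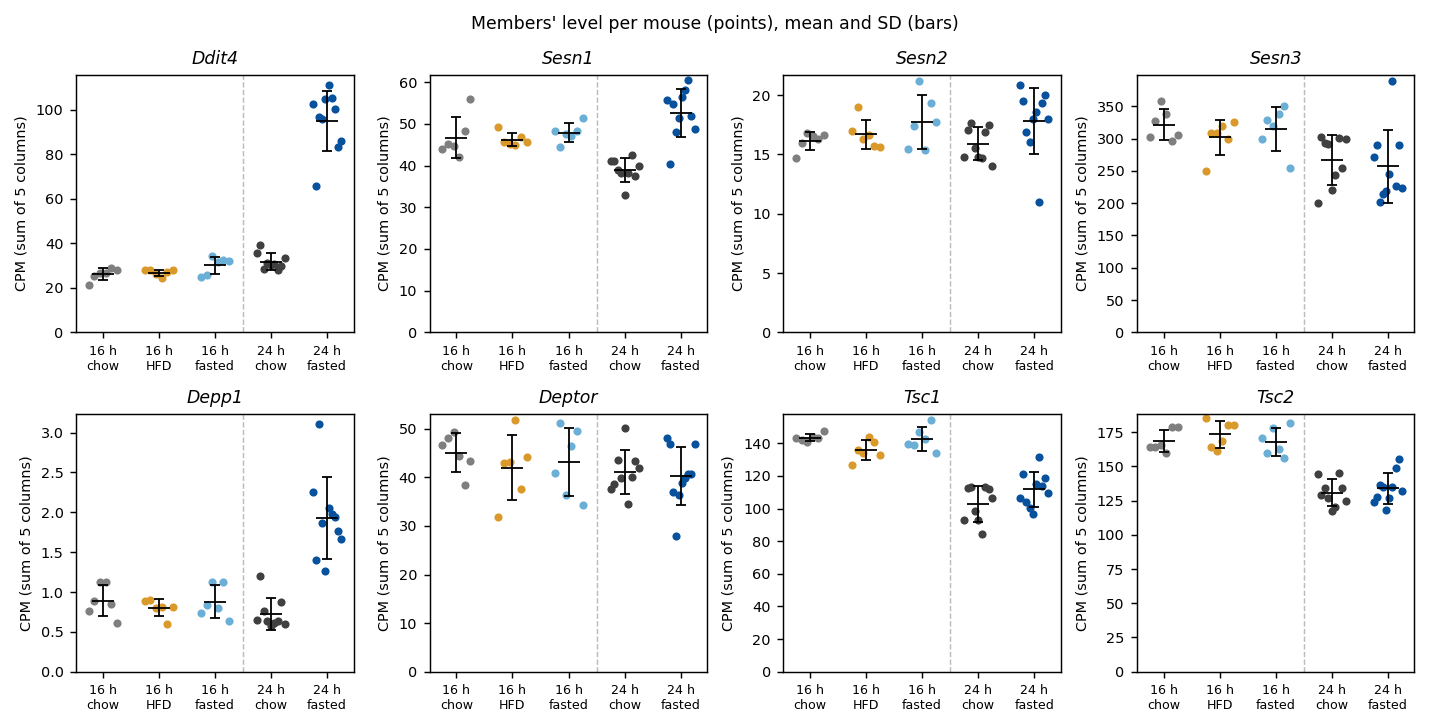
Level of each member in CPM (y axis, from 0) in each mouse (points) of the 5 groups (x axis), with mean and SD as bars and a dashed line between the 16 h and 24 h studies. Ddit4 and Depp1 have no overlap between the 24 h chow and 24 h fasted mice, and the 16 h groups overlap for every member.

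Depp1 was the least abundant member and also rose at 24 h. The chow mice of the 24 h study had 0.575 (lowest), 0.634 (median) and 1.21 CPM (highest), the lowest from 43 reads. The fasted mice had 1.26, 1.90 and 3.11 CPM, the highest from 502 reads. The ranges did not overlap, although the highest chow mouse, again 1423, came close to the lowest fasted mouse. Fasting gave a log2 fold change of 1.46 ± 0.17 (a factor of 2.75, 95% interval 2.17 to 3.49, adjusted p = 5.50e-06), and 1.61 ± 0.15 without mice 1423 and 1454. At 16 h the group means were 0.893 ± 0.199 on chow, 0.803 ± 0.107 on HFD and 0.876 ± 0.209 CPM in fasted mice (SD, n = 6 each). The log2 fold change of fasting at 16 h was -0.02 ± 0.16 (95% interval -0.36 to 0.32), which with these few reads leaves room for a factor of up to 1.25. The effects at 24 h and 16 h differed by 1.49 ± 0.24 (adjusted p = 0.000274).

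Among the sestrins, Sesn1 rose at 24 h and the others did not pass the test. Sesn1, known as a p53 and FoxO target, ran from 32.9 over a median of 38.8 to 42.6 CPM in chow mice and from 40.4 over 53.4 to 60.5 CPM in fasted mice. Of the fasted mice, 9 of 10 were above every chow mouse, the exception being mouse 1425, which was also lowest for Ddit4. The log2 fold change was 0.49 ± 0.06 (a factor of 1.40, adjusted p = 2.91e-05), and 0.51 ± 0.07 without mice 1423 and 1454. Of its exon bases, 10.9% are shared with Cep57l1 on the opposite strand. The strand setting of the counting is not given in the sources used here, and Cep57l1 had a log2 fold change of -0.10 ± 0.10 (adjusted p = 0.589). At 16 h the 3 diets had means of 46.7, 46.2 and 47.9 CPM (chow, HFD, fasted), and fasting gave 0.06 ± 0.06 on the log2 scale (adjusted p = 0.840). The difference of the fasting effects was 0.43 ± 0.09 (adjusted p = 0.00623), and it lost its call when each column had equal weight (0.37 ± 0.14, adjusted p = 0.171).

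Sesn2, known as an ATF4 target, ran from 14.1 over 15.6 to 17.6 CPM in 24 h chow mice and from 11.0 over 18.3 to 20.8 CPM in 24 h fasted mice. Of the fasted mice, 7 of 10 were above every chow mouse, and mouse 1445 was below all of them. The log2 fold change was 0.22 ± 0.09 (adjusted p = 0.124). Without mouse 1445, the mouse with the fewest counts, it was 0.28 ± 0.06 with an adjusted p of 0.00191. Sesn2 was called only in this 1 of the 19 fits that left out a mouse, and in 0 of 9 other settings. At 16 h fasting gave 0.15 ± 0.07 (unadjusted p = 0.0364, adjusted p = 0.630), with differences of 0.10, 0.13 and 0.17 within the rounds of cages and a value of -0.06 with equal weight per column.

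Sesn3, the sestrin known to be raised by FoxO factors, had the most reads of the 8 genes and no detectable difference. The 24 h chow mice ran from 199.7 over 291 to 302 CPM and the fasted mice from 203 over 236 to 390 CPM, which overlapped almost wholly. The log2 fold change was -0.00 ± 0.10 (95% interval -0.22 to 0.21) at 24 h and -0.01 ± 0.07 (95% interval -0.16 to 0.14) at 16 h.

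The TSC subunits moved little. Tsc1, which stabilises the complex, ran from 84.2 over 106.4 to 113.4 CPM in 24 h chow mice and from 96.5 over 111.7 to 131.6 CPM in fasted mice. Of the fasted mice, 5 of 10 were above every chow mouse. The log2 fold change was 0.17 ± 0.05 (a factor of 1.13, adjusted p = 0.0160), the smallest difference called among the members, and 0.19 ± 0.05 without mice 1423 and 1454. The difference from the 16 h effect was 0.17 ± 0.05 and was not called (adjusted p = 0.131). Tsc2, the subunit that acts on Rheb, had means of 130.8 ± 9.69 CPM (SD, n = 9) and 133.9 ± 11.2 CPM (SD, n = 10) and a log2 fold change of 0.09 ± 0.05 (95% interval -0.01 to 0.18, adjusted p = 0.271). Exons of Pkd1 and Nthl1 on the opposite strand share 6.76% and 5.28% of its exon bases. Tbc1d7, the remaining subunit, belonged to the list of other brakes given further on.

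Deptor, the inhibitor bound to mTOR, did not differ detectably in either study. Its means were 41.1 ± 4.44 CPM in 24 h chow mice (SD, n = 9) and 40.3 ± 6.05 CPM in 24 h fasted mice (SD, n = 10), with a log2 fold change of 0.02 ± 0.08 (95% interval -0.15 to 0.19). At 16 h it had 45.1, 42.0 and 43.1 CPM on chow, on HFD and in fasted mice. Fasting at 16 h gave -0.05 ± 0.11 on the log2 scale (95% interval -0.27 to 0.18).

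In total, 4 of 8 members rose in the 24 h comparison and none fell, beside the 11.4% of all genes called there. In the 16 h study edgeR called none of the 8 in any of the 3 comparisons, and DESeq2 called none. For fasting against chow, 2 of 8 members (Ddit4 and Sesn2) had an unadjusted p under 0.05. For HFD against chow and for fasting against HFD, 0 of 8 did. The background there was 0% of 29746 genes called for fasting against chow (2267 with an unadjusted p under 0.05, 19 called by DESeq2), 0% for HFD against chow (2914 and 5) and 0.219% for fasting against HFD (65 genes, 354 by DESeq2, 0 without fasted mouse 11). In the test of the difference between the fasting effects, 3 of 8 members were called, all higher at 24 h, where 1.7% of 30849 genes were called (0.742% with equal weight per column) and 0.956% were higher. The comparisons within the 16 h study share mice, and the difference shares its mice with the comparisons within the studies.

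**Figure D2:**
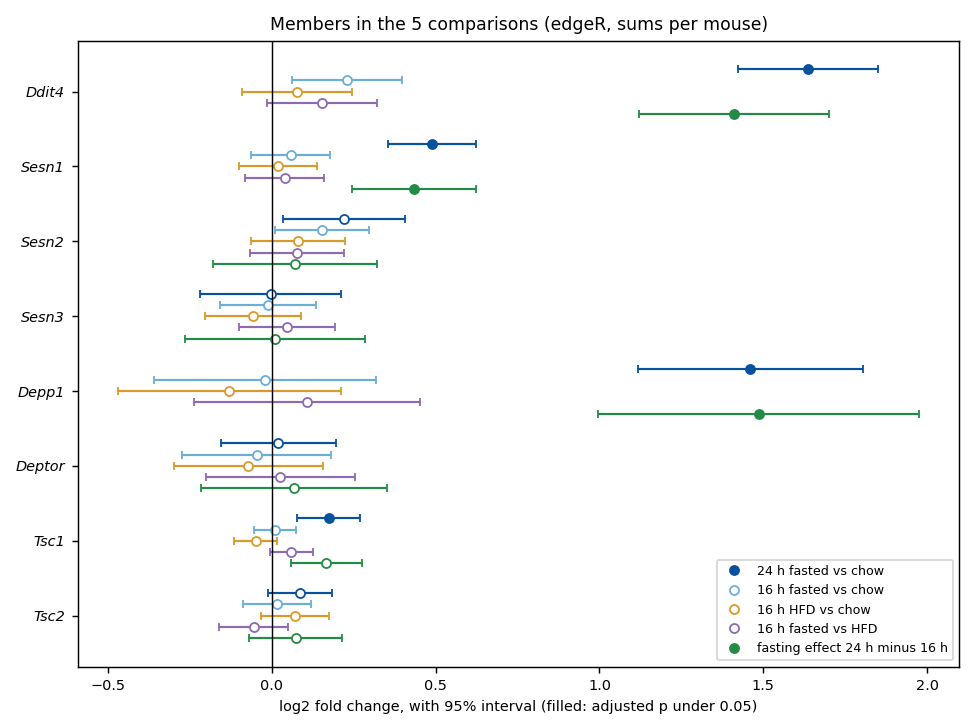
Log2 fold change (x axis) of each member (y axis) in the 5 comparisons (colours), with 95% intervals as bars and filled points for adjusted p under 0.05. The filled points are Ddit4, Sesn1, Depp1 and Tsc1 for 24 h fasted against chow and Ddit4, Sesn1 and Depp1 for the difference between the studies, and the 16 h intervals lie between -0.47 and 0.45.

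Levels of different genes are compared here only per kb of exon. In the chow mice of the 24 h study, the order was Sesn3 (15.2 ± 2.22 CPM per kb), Tsc2 (12.6 ± 0.936), Ddit4 (11.7 ± 1.36), Sesn1 (7.72 ± 0.555), Tsc1 (7.11 ± 0.761), Deptor (4.63 ± 0.501), Sesn2 (3.498 ± 0.306) and Depp1 (0.535 ± 0.149; SD, n = 9 mice). Tsc2 and Ddit4 were neighbours within 1 SD of each other, and the gap between Sesn1 and Tsc1 was larger than the SD of Sesn1 and smaller than that of Tsc1. In the fasted mice of that study Ddit4 led with 35.1 ± 4.97 CPM per kb, ahead of Sesn3 with 14.7 ± 3.21 and Tsc2 with 12.9 ± 1.08 (SD, n = 10). Sesn1 stood at 10.4 ± 1.16, above Tsc1 at 7.72 ± 0.734. In the 16 h chow mice Sesn3 (18.3 ± 1.36) and Tsc2 (16.3 ± 0.785) led, and Tsc1 (9.91 ± 0.167), Ddit4 (9.61 ± 0.993) and Sesn1 (9.26 ± 0.978; SD, n = 6) lay apart by less than the SD of Ddit4 or of Sesn1, though by more than that of Tsc1 where Tsc1 was one of the pair.

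The columns of a mouse, which stand for its brain areas, were also viewed separately, without naming the area. They share a mouse and are not replicates. With the low columns left out, the 34 chow columns of the 24 h study held 21.6 to 63.5 CPM of Ddit4 (median 30.2) and the 38 fasted columns 22.8 to 175.2 CPM (median 87.2). Without mice 1423 and 1454, 33 of 34 fasted columns were above all 30 chow columns. The remaining fasted column had 48.7 CPM, just under the highest chow column at 48.9 CPM. The higher level of Ddit4 was therefore present in nearly every column and not in a few. The chow column at 48.9 CPM, of mouse 1422, also held the lowest Sesn2 (3.70 CPM) and Tsc2 (53.3 CPM) of the chow columns. Fasted mice 1434 and 1445 each had a column with low Tsc2 (72.8 and 55.2 CPM). For mice 1422, 1434 and 1445 the labels mark more samples as failed in quality control than there were low columns. Whether these columns came from failed samples was not tested. For Depp1, 26 of 34 fasted columns were above all chow columns without mice 1423 and 1454 (17 of 38 with them), and for Sesn1 12 of 34. For Tsc1 8 of 34 fasted columns were above all chow columns.

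**Figure D3:**
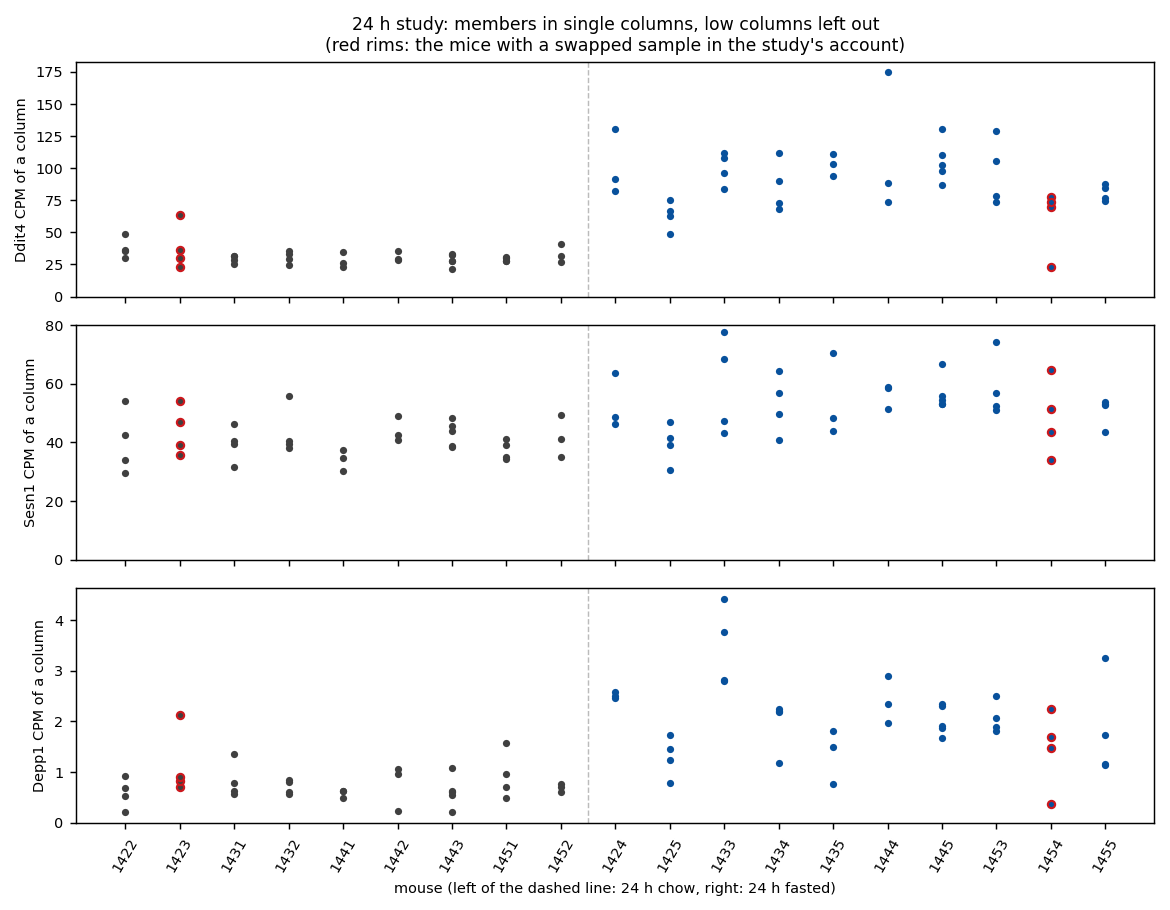
CPM (y axes, from 0) of Ddit4, Sesn1 and Depp1 in each column that was not low, by mouse (x axis), with chow mice left and fasted mice right of the dashed line and mice 1423 and 1454 in red rims. For Ddit4 the columns of the chow mice lie at or under 48.9 CPM apart from the column at 63.5 CPM of mouse 1423, and the column at 22.8 CPM among the fasted mice belongs to mouse 1454.

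Members differed in how unevenly they were spread over the columns of a mouse. The ratio of the highest to the lowest column of a mouse had a median of 1.57 for Ddit4 in the 24 h fasted mice, 1.497 for Sesn1, 1.38 for Tsc1 and 1.78 for Tsc2. It was 2.25 for Sesn3 and 3.03 for Deptor. In the 16 h chow mice, whose columns came from another set of areas, the same ratio was 1.47 for Ddit4, 1.39 for Sesn1, 1.41 for Tsc1, 1.83 for Sesn3 and 2.59 for Deptor. Depp1 had ratios of 2.99 in 24 h chow and 1.74 in 24 h fasted mice, with few reads behind each column.

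Over the 37 mice, the genes most like Ddit4 (Pearson's r of log2 CPM after removal of the mean of each study, among 18845 genes) were Nfkbia (r = 0.98), Arl4d (0.98), Sgk1 (0.97), Arrdc2 (0.97) and Klf15 (0.97). All of these rose at 24 h, with log2 fold changes of 1.61, 2.22, 2.36, 2.30 and 1.10, and the mice share study and diet. For Sesn1 they were Mxd4 (r = 0.93), Mideas (0.93) and Fkbp5 (0.93), and for Depp1 Tma16 (0.91), Cdkn1a (0.90) and Phyhd1 (0.89). For Tsc1 they were Jade2 (r = 0.85), Stim1 (0.81) and 9430041J12Rik (0.80), and for Tsc2 Foxk1 (0.91), Ripor1 (0.90) and Prkce (0.89). For Sesn2 they were Neu1 (0.79), Tubgcp2 (0.79) and Ddx3x (0.78), for Sesn3 Prkar2b (0.88), Fnbp1l (0.88) and Rxrg (0.87), and for Deptor Susd5 (0.76) and Mypn (0.75). Among the members, Ddit4 was most like Sesn1 (r = 0.91) and Depp1 (r = 0.88) over the same mice. With the mean of each group removed, these fell to 0.70 and 0.37, so that most of the likeness to Depp1 came from the means of the groups. Sesn3 and Tsc1 (0.68 within groups) went together, and Deptor and Tsc2 went opposite ways (-0.55). All these correlations are over sums in which the weight of each brain area differs from mouse to mouse. The part of that mix in them was not tested.

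In the 24 h fasted mice, whose weight changed by -17.1% to -21.4%, body weight change was set against the log2 level of each member. For Ddit4 Pearson's r was -0.51 (permutation p = 0.129, adjusted p = 0.257 over 8 members) and Spearman's rho was -0.30 (permutation p = 0.411, adjusted p = 0.759, n = 10). Without the 2 mice farthest from the median weight change r was 0.40, so that no relation held. For Sesn1 r was -0.55 (permutation p = 0.0998, adjusted p = 0.257) and rho was -0.13 (permutation p = 0.734, adjusted p = 0.759), and r was 0.72 without the same 2 mice. No member passed the adjustment, with the lowest adjusted p at 0.257. Without mouse 1454 Ddit4 alone passed it (r = -0.83, adjusted permutation p = 0.0392; rho = -0.63, adjusted permutation p = 0.303), and r was -0.31 once the 2 farthest of these 9 mice were left out.

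Other genes of the pathway were taken from lists, and the count of each list stands beside the share of all genes called at 24 h, 5.78% higher and 5.62% lower. These lists hold genes chosen with earlier results known, and no test over a list was made. Of 6 genes listed as other brakes (Ddit4l, Tbc1d7, Akt1s1, Tsc22d3, Grb10, Trib3), 1 rose, Tsc22d3. Its product GILZ is a glucocorticoid-induced leucine zipper protein, and the gene is on the glucocorticoid list too. Its log2 fold change was 0.83 ± 0.13 (adjusted p = 0.000182). Of 11 genes of the mTOR complexes and Rheb, 1 rose and 2 fell: Prr5 (0.52 ± 0.11) and Prr5l (-0.52 ± 0.14), both partners of mTORC2, and Tti1 (-0.19 ± 0.05), a factor for mTOR assembly. Of 15 genes of GATOR, KICSTOR and their sensors, 1 rose, the arginine sensor Castor1 (0.81 ± 0.14, adjusted p = 0.000536). Of 13 Rag and Ragulator genes 4 rose, led by Fnip2 (0.29 ± 0.06) and Flcn (0.15 ± 0.04), partners in the folliculin complex. Of 11 AMPK and LKB1 genes 1 rose, Cab39l (0.51 ± 0.15). List medians lay between -0.02 and 0.09 on the log2 scale, against -0.00 for all genes and 0.20 for the 8 members.

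Upstream of the TSC complex, 5 of 13 genes of insulin signalling rose and none fell, led by Sgk1 (a kinase related to Akt; 2.36 ± 0.15, adjusted p = 5.17e-09) and the insulin receptor gene Insr (0.23 ± 0.04, adjusted p = 0.000592). Downstream, 5 of 17 mTORC1 outputs rose and none fell, led by the translation factor gene Eif4b (0.30 ± 0.06) and the autophagy gene Atg13 (0.24 ± 0.05). In mean level Sgk1 went from 44.5 to 220.4 CPM and Insr from 114.7 to 129.9 CPM. Apart from Sgk1, the called log2 differences on both lists were at most 0.54.

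The members are known targets of several regulators, and lists of other targets of the same regulators were read side by side. These lists too were chosen with earlier results of these data known, so their counts are not a test. Whether any of these regulators acted on the members was not tested. Of all genes, 5.78% were called higher at 24 h and 5.62% lower. Of 16 glucocorticoid-responsive genes, 16 rose at 24 h, with a list median of 1.30 on the log2 scale. The lowest adjusted p of that list were those of Sgk1 and Arrdc2 (2.30 ± 0.15). Of 13 FoxO targets 8 rose (median 0.29), led by Klf15 (1.10 ± 0.08), a transcription factor, and Pdk4 (1.56 ± 0.17), a brake on glucose oxidation, and both are on the glucocorticoid list too. Of 13 p53 targets 4 rose (median 0.18), led by Cdkn1a (3.71 ± 0.35), an inhibitor of the cell cycle that is also on the glucocorticoid list, and Trp53inp1 (0.84 ± 0.10). Of 14 ATF4 targets 3 rose and 1 fell (median 0.06), with Slc7a5 (0.51 ± 0.06) and Psat1 (0.51 ± 0.09) higher and the cystine transporter gene Slc7a11 lower (-0.90 ± 0.14). Of 11 HIF targets 1 rose, the glucose transporter gene Slc2a1 (0.94 ± 0.09), and 1 fell, Vegfa (-0.29 ± 0.07), with a median of -0.02. At 16 h no gene of the glucocorticoid, FoxO and p53 lists was called for fasting against chow, where the medians were 0.27, 0.04 and 0.02. The difference between the fasting effects was called as higher for 14 of 16, 6 of 13 and 3 of 13 of them, beside 0.956% of all genes.

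**Figure D4:**
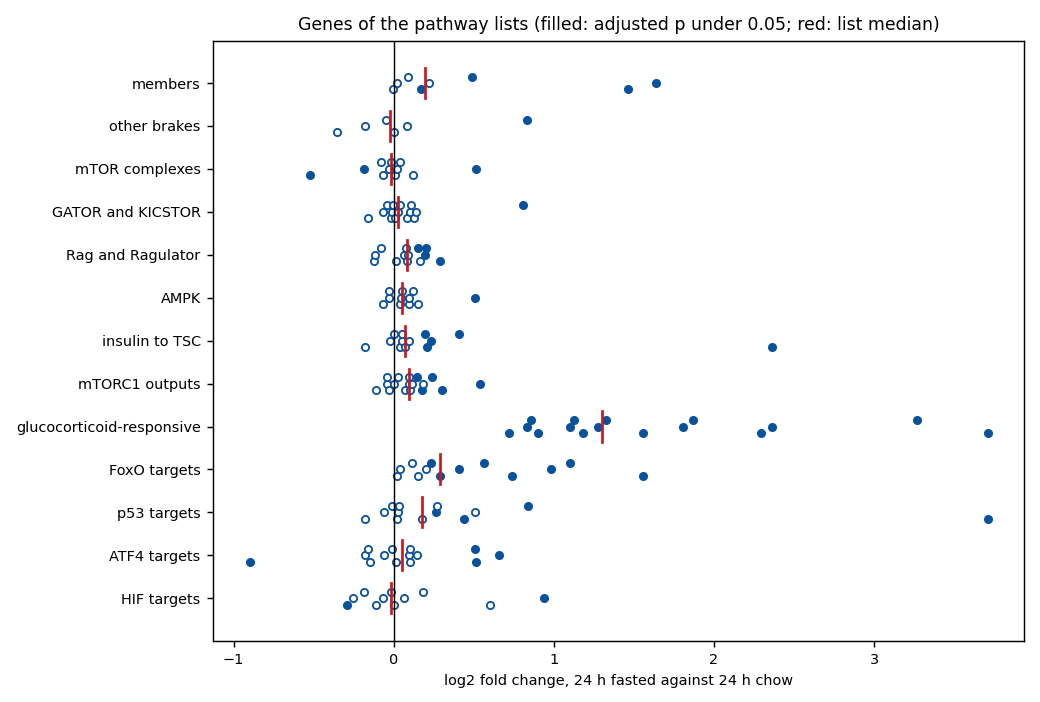
Log2 fold change of 24 h fasted against 24 h chow mice (x axis) for each gene of 13 lists (y axis), filled where the adjusted p was under 0.05, with the list median in red. All 16 glucocorticoid-responsive genes lie at 0.72 or above, while most genes of the mTOR complexes, GATOR, Rag and AMPK lists lie near 0.

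Markers of other cell types moved with the 24 h fast as well. Of 8 endothelial markers, 5 fell and none rose, and their summed level ran from 236 over 272 to 371 CPM in chow mice and from 176.3 over 227 to 285 CPM in fasted mice. Of 6 microglial markers, 4 fell, with sums of 116.96 to 162.5 CPM in chow and 93.8 to 151.2 CPM in fasted mice. Of 6 mural cell markers 2 fell, and of 6 astrocyte markers 2 fell. Of 9 neuronal markers 0 were called, with sums of 3163 to 4567 CPM and 3466 to 4463 CPM. No marker of these lists had 3 counts or fewer in a group, and the part of these cell types in the members' differences was not tested. The summed level of 6 oligodendrocyte markers ran from 4238 to 7457 CPM in chow and from 4070 to 7582 CPM in fasted mice. That of 4 markers of their progenitors ran from 200 to 303 CPM and from 208 to 280 CPM. Of all genes tested at 24 h, 5.62% were called lower and 5.78% higher.

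Sequences before the start of the members that rose at 24 h are shown so that motifs of their known regulators can be read in place. The window was the 250 bases before the most upstream annotated start (GRCm39, GENCODE vM39), and 5 of the 8 members had a window free of annotated exons. Windows of Sesn1, Deptor and Tsc2 overlap exons of neighbouring genes and are not printed. Capitals mark a motif found in either direction, and each line runs 5′ to 3′ on the strand of the gene.
Ddit4 (chr10:59788493-59788742, minus strand; the gene spans chr10:59785491-59788492): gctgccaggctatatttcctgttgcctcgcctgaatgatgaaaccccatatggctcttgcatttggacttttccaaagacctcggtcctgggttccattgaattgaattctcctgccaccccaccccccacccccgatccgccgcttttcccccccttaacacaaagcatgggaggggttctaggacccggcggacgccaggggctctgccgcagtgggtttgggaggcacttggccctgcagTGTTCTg
Depp1 (chr6:116627320-116627569, plus strand; the gene spans chr6:116627570-116629755): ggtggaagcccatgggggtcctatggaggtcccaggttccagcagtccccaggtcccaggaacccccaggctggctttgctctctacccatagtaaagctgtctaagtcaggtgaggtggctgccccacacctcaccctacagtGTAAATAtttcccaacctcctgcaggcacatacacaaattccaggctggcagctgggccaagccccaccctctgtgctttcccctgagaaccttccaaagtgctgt
Tsc1 (chr2:28530811-28531060, plus strand; the gene spans chr2:28531061-28581179): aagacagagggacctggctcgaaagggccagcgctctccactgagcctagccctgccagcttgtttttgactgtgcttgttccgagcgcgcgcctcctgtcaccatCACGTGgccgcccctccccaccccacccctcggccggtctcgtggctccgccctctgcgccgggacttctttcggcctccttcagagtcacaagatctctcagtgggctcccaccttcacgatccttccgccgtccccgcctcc

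Of 8 motifs searched on both strands, the Ddit4 window held the glucocorticoid receptor hexamer AGAACA on the opposite strand, 7 to 2 bases before the start. The Depp1 window held the forkhead motif GTAAATA, which ends 100 bases before the start, and the Tsc1 window held the E-box CACGTG, which contains the hypoxia motif ACGTG on each strand. In all 21770 windows of protein-coding genes, AGAACA was present in 15.5%, GTAAATA in 2.99%, CACGTG in 5.69% and ACGTG in 16.4%. The hexamer was also in the windows of Deptor and Tsc2, which did not pass the test at 24 h. The full palindrome of the glucocorticoid response element (in 0.00459% of windows), the FoxO motif GTAAACA (2.97%), the cAMP response element TGACGTCA (1.31%) and the amino acid response element TGATGCAAT (0.207%) were in none of the 8 windows. A match describes letters only, and these windows do not cover distant elements or other start sites.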

How the data were processed

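Libraries depleted of ribosomal RNA (NEBNext Ultra Directional) were aligned by the authors to GRCm39 with STAR 2.7.3a in its gene counting mode, and the deposited values are whole-number counts per gene, not normalized. The annotation release and the strand column are not given in the sources used here. Symbols and coordinates came from GENCODE vM39, in which 56310 of 57010 gene IDs had a symbol.

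The sums of 5 columns per mouse were tested in R 4.3.3 with edgeR 4.0.16 (genes kept by filterByExpr, factors by TMM, fits by glmQLFit, tests by glmQLFTest, two-sided, Benjamini-Hochberg over all genes tested, called at an adjusted p under 0.05). The 3 diets at 16 h shared a fit, and the difference between studies used all 37 mice in 5 groups. The log2 fold changes use TMM factors, whereas CPM uses plain totals, and the counts carry no molecular identifiers. Weight relations used 100000 permutations in scipy 1.17.1. Alternatives used DESeq2 1.42.0 and limma 3.58.1, other size factors, no filter, other columns, mice and covariates. The fits were tested on simulated data with 200 changed genes. At 24 h edgeR recovered 185 of them with 6 false calls, and DESeq2 190 with 30. At 16 h edgeR recovered 192 with 11 false calls, and DESeq2 196 with 58. No 2 columns held identical values.

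The members and gene lists were chosen with earlier results of these data known, and so were the limits of a low column. From each pathway list, up to 2 called genes per direction with the lowest adjusted p at 24 h are named. For each member 3 genes (5 for Ddit4) of highest r are named, except 1 gene for Deptor that is not reported here, among genes whose mean log2 CPM was not under 0. No test by brain area was made, since columns could not be assigned to areas. The deposited sample table was not used.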

Additional observations from a re-analysis of the deposited data

Results flagged for a closer look

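The fasting effect differed between the 24 h and the 16 h study for 3 members in the test of the difference itself: Ddit4 by 1.41, Sesn1 by 0.43 and Depp1 by 1.49 on the log2 scale, each higher at 24 h. In all 10 fasted mice of the 24 h study Ddit4 and Depp1 were above all chow mice of that study, and for Sesn1 this held in 9 of 10. Of all genes, 1.7% were called in the test of the difference, 0.956% as higher at 24 h. At 24 h the fasted range lay wholly above the chow range for 0.714% of genes. Duration, housing, set of brain areas, hemisphere, start time, date and sequencing run changed together between the studies and cannot be told apart.

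A single mouse stood apart from its group (Dixon's criterion at 95%) in 5 of the 40 combinations of member and group, where chance flags about 1 in 20. Chow mouse 1423 of the 24 h study had 1.21 CPM of Depp1, the next having 0.874 CPM. This mouse holds the column that stood with the fasted columns, and without it the log2 fold change of Depp1 rose to 1.59. Fasted mouse 1445 had 11.0 CPM of Sesn2, the next lowest having 16.0 CPM, and 389.7 CPM of Sesn3, the next highest having 289.5 CPM. Its 57962237 counts were the fewest of the 37 mice, and a sample of it is labelled as failed in the study's quality control. HFD mouse 13 of the 16 h study had 249.6 CPM of Sesn3, the next having 299.6 CPM, and HFD mouse 17 had 0.603 CPM of Depp1 from 59 reads, the next having 0.803 CPM.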

How the results depend on the processing

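No paired analysis was possible because the replicate numbers are animal numbers that no 2 groups share, so that only the round in which cages were started could be blocked. With it as a covariate at 16 h, 0 of 8 members were called in each comparison, and fasting against HFD called 0.299% of genes. The count of members called stayed at 4 of 8 for the 24 h comparison under all 9 other settings and at 0 of 8 for the comparisons at 16 h under all theirs. For the difference between studies it stayed at 3 of 8 under 7 of 8 settings and was 2 of 8 with equal weight per column, where Sesn1 lost its call. With equal weight per column the 24 h comparison called 1201 genes in place of 3307, and with the low columns left out as well, a setting chosen after the data had been seen, 3301. At 16 h, fasting against HFD called 65 genes (0.219%), 354 with DESeq2, 0.585% of genes with equal weight and the low columns left out, 26 without a filter, 25 with 2 diets only and 0 with cage sums or with equal weight alone. Leaving out 1 mouse of these groups moved it to between 0 (without fasted mouse 11) and 0.337% of genes (without fasted mouse 7), with 2 genes without HFD mouse 18, and of the 12 mice only HFD mouse 14 left it near 65, at 44. The difference between studies called 523 genes, 229 with equal weight per column, and 343 (without fasted mouse 8 of the 16 h study) to 633 (without fasted mouse 1425) with a mouse left out. The settings other than the loss of a single mouse included the fit without mice 1423 and 1454. Over these settings the log2 fold change at 24 h ranged from 1.54 to 1.70 for Ddit4 and from 0.42 to 0.51 for Sesn1. It ranged from 1.39 to 1.61 for Depp1 and from 0.17 to 0.21 for Tsc1. Leaving out each mouse in turn gave 1.60 to 1.69, 0.47 to 0.53, 1.35 to 1.59 and 0.15 to 0.20, with adjusted p of at most 0.0321. The only call gained was that of Sesn2 without mouse 1445. Body weight change passed the adjustment for 0 members with all mice and for 1 without mouse 1454. Only log2 values that passed no test changed sign. With equal weight per column fasting against chow at 16 h gave -0.12 for Ddit4, -0.056 for Sesn2, -0.38 for Tsc1 and -0.042 for Tsc2, and fasting against HFD gave -0.15, -0.14 and -0.35 for the first 3, with -0.33 for Sesn3, -0.15 for Depp1 and -0.24 for Deptor. Deptor at 24 h was -0.11 with it and -0.054 with the low columns left out as well, where Depp1 for 16 h fasting against chow was 0.040 and the difference between studies for Sesn3 -0.066 (-0.018 without the low columns alone). Sesn3 at 24 h was 0.00879 with DESeq2, 0.00893 with RLE size factors, 0.012 with mitochondrial genes left out and 0.00723 without mice 1423 and 1454. Leaving out a mouse gave -0.084 to 0.032 for Sesn3 and -0.018 to 0.084 for Deptor at 24 h. For 16 h fasting against chow it gave -0.044 to 0.032 for Sesn3, -0.11 to 0.055 for Depp1, -0.10 to 0.0060 for Deptor, -0.014 to 0.017 for Tsc1 and -0.023 to 0.036 for Tsc2. It gave -0.0061 to 0.074 for Sesn1 (HFD against chow), -0.038 to 0.095 for Deptor (fasting against HFD) and -0.067 to 0.039 for Sesn3 (difference between studies). The cause of these shifts was not tested. Depth limits Depp1 most, with 43 to 502 reads per mouse.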
